A study of Sus scrofa with 20 samples.

Results

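The microRNAs ssc-miR-103, ssc-miR-107, ssc-miR-378, ssc-miR-185 and ssc-miR-210, known from energy metabolism and the response to low oxygen, were followed in blood mononuclear cells of pigs before and after an experimental brain haemorrhage. They were chosen by name and make up 5 of the 284 miRNAs listed in the pig-reference count table. All 5 were abundant enough to be tested, among 179 tested in all. As a check, the human-reference table was searched for the same numbers, arms and lettered relatives included, which gave 18 of its 608 miRNAs, of which 11 could be tested among 245.

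Peripheral blood mononuclear cells were taken from female American Yorkshire pigs aged 80 to 90 days and weighing 36 to 41 kg. Intracerebral haemorrhage (ICH) was made by placing 2 to 4 mL of the animal's own blood in the white matter of the frontal lobe. The 10 samples labelled Control were drawn before ICH and the 10 samples labelled ICH were drawn 6 h after it, with replicate numbers 1 to 10 in each group. Sham-operated animals were not part of the data used, so the bleed cannot be told apart from anaesthesia, surgery, the time elapsed and repeated blood sampling. The libraries held 896960 to 2103685 miRNA reads against the pig reference, 949545 to 2091205 in Control and 896960 to 2103685 in ICH. Levels are given as CPM, reads scaled to a common library size. Same-numbered samples deviated together from their group means, and were each other's closest match in 7 of 10 numbers. Changes were therefore tested within numbers by edgeR's quasi-likelihood test with Benjamini-Hochberg adjustment over all miRNAs tested. An adjusted p under 0.05 was called. Without the number as a block, 0 of 179 pig-reference miRNAs passed, with 35 (19.6%) at an unadjusted p under 0.05, and of the 5 miRNAs 0 were at an unadjusted p under 0.05.

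As background, a microRNA is a short RNA cut from a hairpin that guides repression of messenger RNAs matching its seed. miR-103 and miR-107 come from introns of the pantothenate kinase genes, which start coenzyme A synthesis, share a seed and differ little elsewhere, and are known as regulators of insulin sensitivity. miR-378 lies within PPARGC1B, a coactivator of mitochondrial genes, and is known from control of fatty acid oxidation. miR-185 is known to repress genes of cholesterol uptake and synthesis. miR-210 is the standard target of hypoxia-inducible factor among miRNAs and represses the iron-sulphur cluster scaffold ISCU in mitochondria.

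Positions of the hairpins were read from RefSeq's gene table for Sscrofa11.1. MIR103-1 lies at chr16:55329442-55329523 within PANK3, and MIR103-2 at chr17:31808837-31808916 within PANK2. MIR107 lies at chr14:101420743-101420829 within PANK1, where the non-coding LOC110256785 is also annotated. MIR378-1 is at chr2:150825865-150825944 within PPARGC1B, and MIR378-2 at chr12:36947443-36947510 within BCAS3. MIR185 is at chr14:51449903-51449978 within TANGO2. MIR210 is at chr2:335271-335346, inside no other annotated gene. The table gives gene limits without exons, so exon or intron was not read from it, and a count of miR-103 or miR-378 cannot be divided between its pair of hairpins.

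The 5 miRNAs spanned a wide range of levels that was ordered alike in every library. miR-103 ranked 7 of 284 by mean CPM and held 3.18% of reads, miR-185 ranked 21 with 0.744%, and miR-378 ranked 30 with 0.41%. miR-107 ranked 86 and miR-210 ranked 126, with 0.0265% and 0.00598% of reads. miR-103 exceeded miR-185 by 4.28-fold, miR-185 exceeded miR-378 by 1.79-fold, miR-378 exceeded miR-107 by 15.8-fold and miR-107 exceeded miR-210 by 4.47-fold. Each of these steps held in 20 of 20 libraries, and the ranges over libraries overlapped for miR-185 and miR-378 only. Mature miRNAs are of nearly the same length, so counts were not divided by length, but ligation in small RNA kits differs between miRNAs and its part in the order was not tested.

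**Figure D1:**
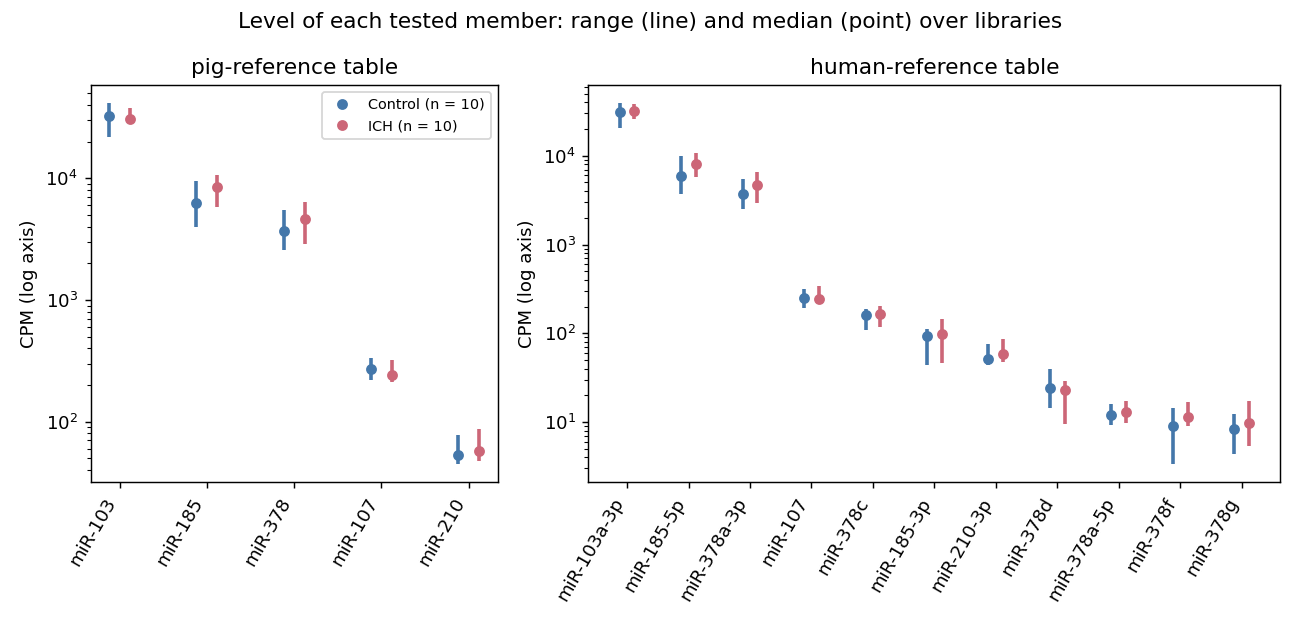
CPM on a log axis for each tested miRNA of the set, in the pig-reference table (left) and the human-reference table (right). Lines run from the lowest to the highest of 10 libraries and points mark the medians; Control and ICH ranges overlap for every miRNA, and miR-103 stands highest in both panels.

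None of the 5 miRNAs passed the test in the pig-reference counts, where 39 of all 179 tested, or 21.8%, did. At an unadjusted p under 0.05 the count was 2 of 5, miR-378 and miR-185, beside 61 of 179 (34.1%). With DESeq2 1 of 5 passed, miR-378, beside 25.7% of all tested. With limma voom 0 of 5 passed, beside 23.5% of all tested, and miR-378 and miR-185 were again at an unadjusted p under 0.05. Of all 39 called, 21 (11.7% of those tested) were higher and 18 (10.1%) lower after ICH, and the median log2 fold change of all tested miRNAs was -0.04. Upper-quartile scaling changed that split to 35 higher and 9 lower (24.6% called) and moved the median by 0.12. With that scaling 2 of 5 passed as higher, miR-378 and miR-185, with edgeR's adjusted p of 0.00972 and 0.00674. In bulk mononuclear cells, a change in the number of cells that carry a miRNA cannot be told apart from a change in its amount per cell.

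miR-378 had the second largest point estimate of the set. Control libraries ranged from 2583 to 5499.9 CPM with a median of 3708, and ICH libraries from 2883 to 6354 CPM with a median of 4667. The ranges overlapped over most of their length, and the ICH value was the higher in 7 of 10 numbers. Means were 3795 ± 939 CPM before and 4490.4 ± 967 CPM after ICH (SD over 10 libraries). The log2 fold change was 0.25 with a standard error of 0.098 and a 95% interval of 0.05 to 0.46, or 1.19-fold with an interval of 1.03 to 1.37. edgeR's adjusted p was 0.0689 and the unadjusted p 0.0193. Relative to the median of all tested miRNAs, the log2 fold change was 0.29, and it stayed between 0.27 and 0.29 over the scalings, filters and tools tried with the block.

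The miR-378 difference was uneven over the numbers. Number 7 went from 2662 to 4897 CPM (1.84-fold), number 1 from 2861 to 4661 CPM (1.63-fold) and number 10 from 3783 to 5159.9 CPM (1.36-fold). The other 7 numbers lay between 0.964-fold and 1.16-fold, so most pairs lay close to no difference. Without number 7 the log2 fold change was 0.18 (edgeR's adjusted p = 0.19). Leaving out number 4 moved the adjusted p the other way, to 0.0225 at a log2 fold change of 0.32.

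miR-185 had the largest point estimate of the set and the widest spread of log2 changes over the numbers. Control libraries ranged from 3967 to 9594 CPM with a median of 6325, and ICH libraries from 5819.9 to 10708 CPM with a median of 8569. The 2 groups overlapped, although the lowest ICH library was above the lowest Control libraries. Means were 6742 ± 1949 CPM and 8092 ± 1583 CPM (SD, n = 10 each), and 8 of 10 numbers were higher after ICH. The log2 fold change was 0.29 with a standard error of 0.12 and an interval of 0.04 to 0.54, or 1.22-fold (1.03 to 1.45). edgeR's adjusted p was 0.078 and the unadjusted p 0.0231. Relative to the median of all tested miRNAs the value was 0.33, with 0.31 to 0.33 over the scalings, filters and tools.

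Single numbers again carried much of the miR-185 estimate. Number 1 went from the lowest Control level of 3967 CPM to 9183 CPM, 2.31-fold. Number 4 went from 4713 to 8794 CPM (1.87-fold) and number 7 from 7686 to 10708 CPM (1.39-fold), while number 5 was lowest at 0.925-fold. Without number 1 the log2 fold change was 0.22 (edgeR's adjusted p = 0.127). The SD of the log2 change over numbers was 0.439.

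miR-103 did not pass the test and its numbers were split in direction. Control libraries ranged from 21709 to 41692 CPM with a median of 32426, and ICH libraries from 28338 to 38246 CPM with a median of 30887. All ICH libraries lay inside the Control range. Means were 31414 ± 7072 CPM and 32133 ± 3371 CPM (SD, n = 10 each). The log2 fold change was 0.06 ± 0.096 (SE) with an interval of -0.14 to 0.26 and edgeR's adjusted p of 0.704, which bounds the fold between 0.907 and 1.2. Numbers 1 to 4 were lower after ICH, at 0.724-fold to 0.91-fold, and numbers 5 to 10 higher, at 1.06-fold to 1.41-fold. The 3 lowest Control libraries, numbers 10, 7 and 5 at 21709, 22411 and 23918 CPM, were all among those that were higher after ICH. The SD of log2 CPM was 0.338 in Control and 0.147 in ICH; this difference in spread was not tested.

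miR-107, the paralog of miR-103, stood far lower and also did not pass. Its Control libraries ranged from 221 to 336 CPM (median 270.0) and its ICH libraries from 212 to 323 CPM (median 242). The ranges coincided almost fully. The log2 fold change was -0.03 ± 0.098 (SE), with an interval of -0.23 to 0.17 and edgeR's adjusted p of 0.819. The sign was not stable: the log2 fold change turned to 0.09 with upper-quartile scaling. Relative to the median of all tested miRNAs the value was 0.01, with -0.017 to 0.013 over the scalings, filters and tools. In 6 of 10 numbers the ICH level was the higher, over a range from 0.631-fold in number 1 to 1.3-fold in number 5.

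miR-210, the miRNA most tied to hypoxia, was the least abundant of the set, with a mean of 81.7 reads a library. Control libraries ranged from 44.7 to 77.0 CPM (median 53.6) and ICH libraries from 47.6 to 87.1 CPM (median 57.3). The groups overlapped, and 6 of 10 numbers were higher after ICH, between 0.937-fold in number 10 and 1.34-fold in number 4. The log2 fold change was 0.11 ± 0.10 (SE), with an interval of -0.10 to 0.32 and edgeR's adjusted p of 0.484. The interval of the fold change was 0.931 to 1.24 with this scaling. It was 0.961 to 1.32 in the human-reference table, where the miR-210 counts were the same and the log2 fold change was 0.17, and the pig-reference estimate was 0.22 with upper-quartile scaling.

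**Figure D2:**
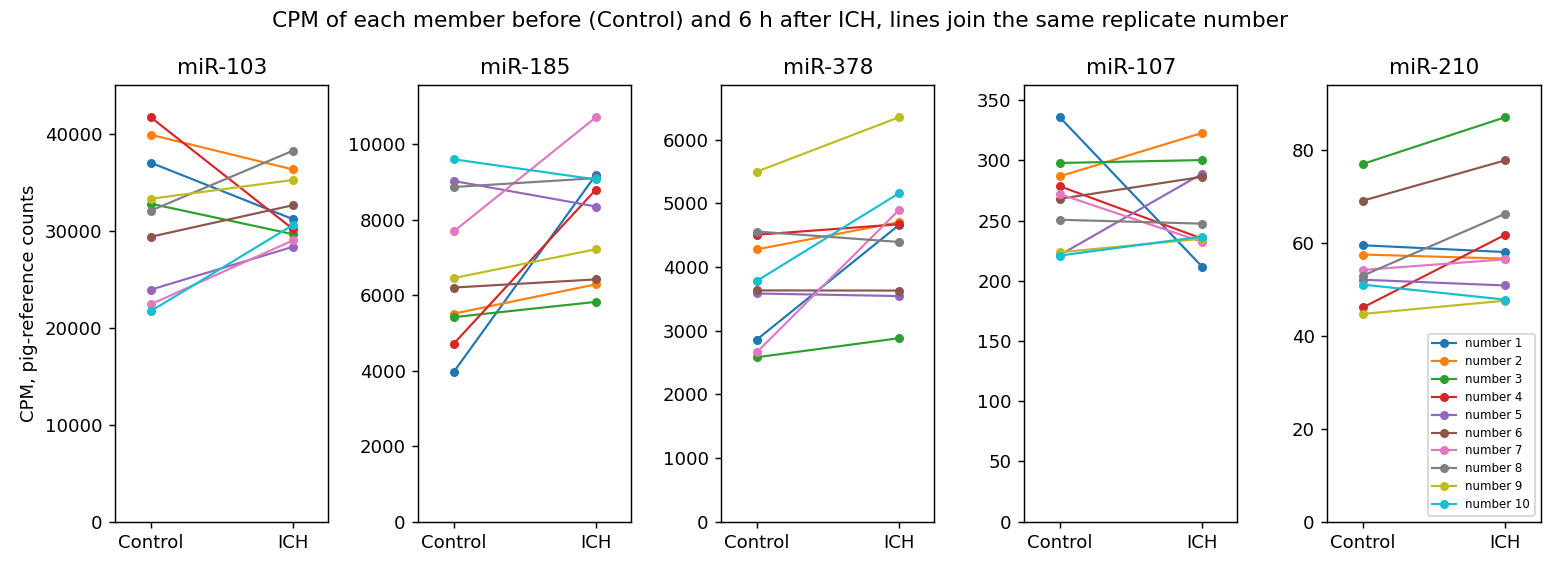
CPM in the pig-reference counts before (Control) and 6 h after ICH for each of the 5 miRNAs, with 1 line per replicate number and axes starting at 0. Lines rise in 7 of 10 numbers for miR-378 and in 8 of 10 for miR-185, fan in both directions for miR-103, and number 1 has the steepest line for miR-185.

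The human-reference counts of the same libraries gave calls for 2 of the 11 tested miRNAs, miR-185-5p and miR-378a-3p, both higher after ICH. Of all 245 miRNAs tested there, 47 (19.2%) passed, 32 (13.1%) higher and 15 (6.12%) lower, with a median log2 fold change of 0.03 over all tested. The split of higher and lower became 15 and 24 with library totals and 18 and 29 with upper-quartile scaling, which moved the median by -0.11 and -0.12. The same 2 of 11 were the ones at an unadjusted p under 0.05, beside 31.0% of all tested. At these shares 2 of 11 is close to the background. The reads are largely the same as in the pig-reference table, so these calls are no independent evidence.

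miR-185-5p ranged from 3752 to 9843 CPM in Control (median 5992) and from 5778 to 10684 CPM in ICH (median 7982), with 8 of 10 numbers higher. Its log2 fold change was 0.36 ± 0.12 (SE), with an interval of 0.12 to 0.59, and edgeR's adjusted p was 0.0302. miR-378a-3p ranged from 2518 to 5516 CPM in Control (median 3703) and from 2954 to 6596 CPM in ICH (median 4662), with 9 of 10 numbers higher. Its log2 fold change was 0.31 ± 0.099 (SE), with an interval of 0.10 to 0.51, and edgeR's adjusted p was 0.0302. Both groups overlapped for both miRNAs. Neither call held without the block, where 3.67% of all tested passed, 18.4% were at an unadjusted p under 0.05, and the adjusted p was 0.233 for miR-185-5p and 0.273 for miR-378a-3p. Of the 21 alternatives run for each, 6 kept the call of miR-185-5p (log2 fold change 0.19 to 0.38 over all 21) and 6 that of miR-378a-3p (0.19 to 0.31). Leaving out 1 number at a time lost the call of miR-185-5p for 8 of 10 numbers (all but 5 and 10) and that of miR-378a-3p for 8 of 10 (all but 4 and 8), with adjusted p up to 0.179 and 0.172 and the lowest estimates, 0.19 and 0.20, when number 1 was left out.

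The calls of miR-185 and miR-378 changed sides when the library sizes of the 2 tables were exchanged, on nearly the same reads. The human-reference count of miR-185-5p was 100% to 100.06% of the pig-reference count of miR-185, that of miR-378 100.8% to 104.9%, that of miR-103 100.003% to 100.015%, and that of miR-107 100% to 100.3%. The 2 tables gave the same miR-210 count in 20 of 20 libraries. With the pig table's library sizes on the human counts, an alternative added after the data were seen, the log2 fold changes were 0.29 for miR-185-5p and 0.24 for miR-378a-3p, with edgeR's adjusted p of 0.084 and 0.0842. With the human table's sizes on the pig counts they were 0.36 for miR-185 and 0.32 for miR-378, with adjusted p of 0.0327 and 0.0274. Relative to the median of all tested miRNAs of each table, miR-185 stood at 0.33 in both, and miR-378 at 0.29 in the pig table and 0.28 in the human table.

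**Figure D3:**
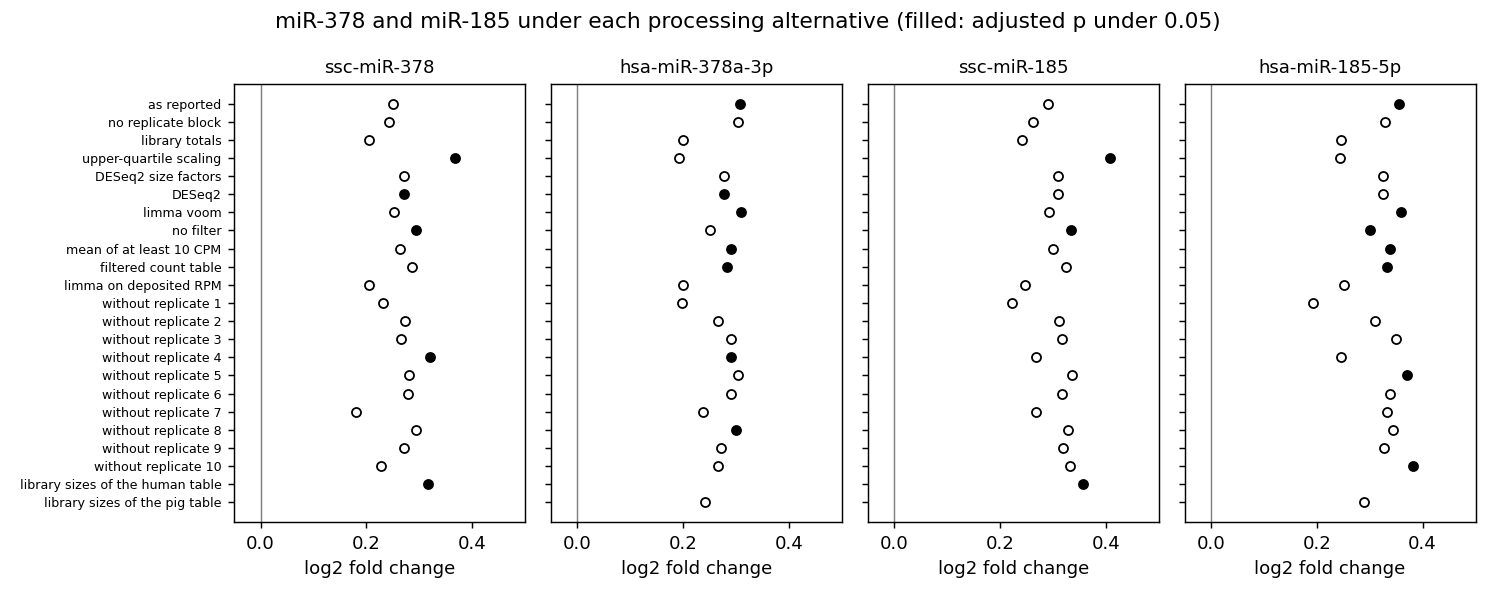
Log2 fold change of miR-378 and miR-185 in the pig-reference table and of miR-378a-3p and miR-185-5p in the human-reference table under each way of processing, with filled points where the adjusted p was under 0.05. Every point lies above 0, and the calls change between settings while the estimates stay between 0.18 and 0.41.

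The remaining human-reference miRNAs of the set did not pass. miR-103a-3p was at 0.13 ± 0.097 (SE), miR-107 at 0.04 ± 0.10, and miR-210-3p at 0.17 ± 0.11 on the log2 fold change scale, with edgeR's adjusted p of 0.41, 0.87 and 0.313. miR-210-3p was higher after ICH in 9 of 10 numbers, with 43.5 to 76.1 CPM in Control and 46.9 to 86.4 CPM in ICH, ranges that overlapped. That count depended on the scaling: the same reads with pig-reference library sizes were higher in 6 of 10. On library totals the human-reference log2 fold change was 0.07. The star arm miR-185-3p was at 0.22 ± 0.13 (adjusted p = 0.269 by edgeR), and miR-378a-5p at 0.08 ± 0.18 (adjusted p = 0.828).

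The lettered relatives of miR-378 were minor. miR-378a-3p made up 93.5% to 96.2% of the reads of the 11 human miR-378 names in a library, with a median of 94.5%. miR-378c, miR-378d, miR-378f and miR-378g had log2 fold changes of 0.11, -0.18, 0.40 and 0.34, with edgeR's adjusted p between 0.256 and 0.556. Reads of near-identical relatives may be divided by the counting rule, which is not given in the sources used here, so the split among them is uncertain. In the pig-reference table the separate name miR-378b-3p, outside the set, averaged 213 ± 44.5 CPM before and 212 ± 45.2 CPM after ICH (SD over 10 libraries). There were 7 human names with too few reads to test, 2 to 110 reads over 20 libraries. They were miR-103a-2-5p, miR-210-5p, miR-378b, miR-378e, miR-378h, miR-378i and miR-378j. A count of 0 in 1 library allows up to 3 reads, or 1.38 to 3.26 CPM on unscaled library totals, for counting error only.

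**Figure D4:**
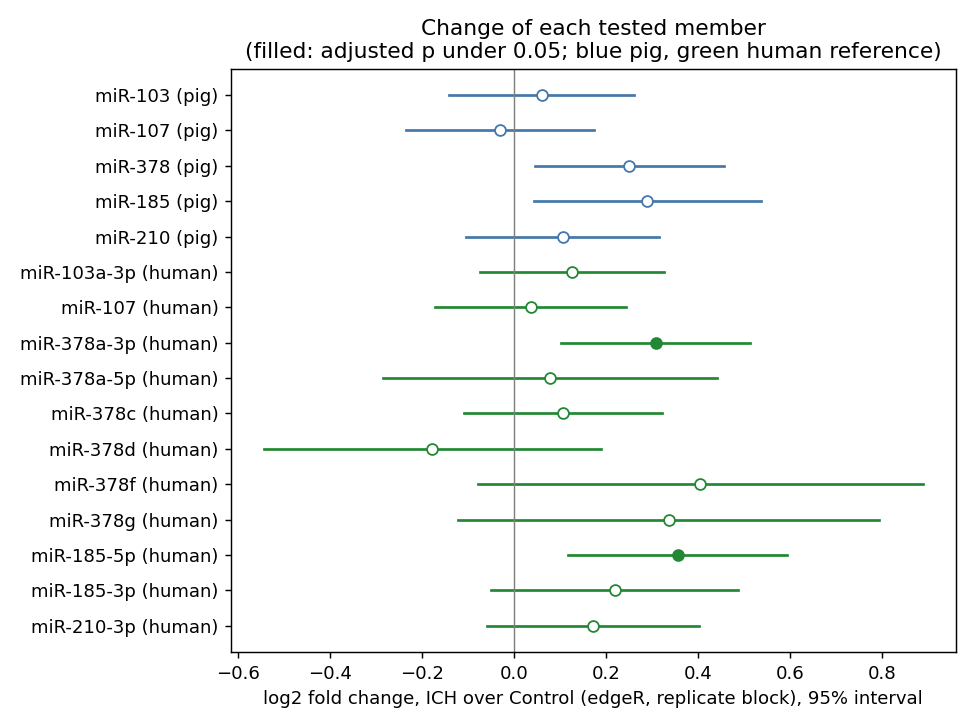
Log2 fold change of ICH over Control with its 95% interval for every tested miRNA of the set, from edgeR with replicate numbers as a block (blue pig reference, green human reference, filled where the adjusted p was under 0.05). The filled points are miR-185-5p and miR-378a-3p of the human table, at 0.36 and 0.31; the pig-reference intervals of miR-378 and miR-185 also lie above 0 but missed the adjusted threshold.

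Ratios within a library need no scaling between libraries, and 4 were tested by an exact two-sided sign-flip test over the 10 numbers with adjustment over the 4. miR-107 made up 0.643% to 1.2% of the reads of miR-103 and miR-107 together, with a median of 0.832%. The log2 ratio of miR-107 to miR-103 averaged -6.86 ± 0.27 for Control and -6.96 ± 0.24 for ICH (SD over 10 libraries each), a difference of -0.09 that was positive in 4 of 10 numbers (exact p = 0.363, adjusted 0.495). The human-reference counts gave the same difference (exact p = 0.371, adjusted 0.495). The ratio of these near-identical paralogs differed between groups by less than its spread between libraries. How reads fitting both names were counted is unknown. Whether miR-103 reads entered the miR-107 count, and so its level, change and ratio, was not tested.

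Neither tested ratio between hairpin arms passed. miR-378a-3p held 99.4% to 99.8% of the reads of the 2 miR-378a arms. Its log2 ratio to miR-378a-5p averaged 8.20 ± 0.51 for Control and 8.39 ± 0.42 for ICH (SD over 10 libraries each), with a difference of 0.20 and 6 of 10 numbers higher (exact p = 0.121, adjusted 0.484). miR-185-3p held 0.554% to 2.38% of the reads of the miR-185 arms, and its log2 ratio to miR-185-5p went from -6.24 ± 0.73 to -6.39 ± 0.52, with 5 of 10 numbers higher (exact p = 0.518, adjusted 0.518). miR-210-5p had a mean of 1.15 reads a library against 81.7 for miR-210-3p, so its arm ratio was not tested.

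Across the 20 libraries the 5 miRNAs did not move as a group. Pearson's r of log2 CPM was -0.76 between miR-107 and miR-185, -0.58 between miR-378 and miR-210, -0.56 between miR-103 and miR-185 and -0.56 between miR-107 and miR-378. It was 0.39 between the paralogs miR-103 and miR-107, 0.37 between miR-378 and miR-185, and 0.44 between miR-107 and miR-210. These values are descriptions over 20 libraries that were treated as pairs, and values within a library share its scaling.

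Among all other tested pig-reference miRNAs, those nearest to each member differed from member to member. miR-103 was most like miR-191 (Pearson's r = 0.83, Spearman's rho = 0.87), miR-30d (r = 0.77) and miR-146a-5p (r = 0.76). miR-107 was most like miR-628 (r = 0.74), miR-15a (r = 0.74) and miR-23a (r = 0.73), and miR-210 was also nearest to miR-15a (r = 0.69), with miR-126-5p (r = 0.66) and miR-23a (r = 0.60) next. miR-185 was most like miR-320 (r = 0.83), miR-423-5p (r = 0.74) and miR-1249 (r = 0.68). miR-378 was most like miR-7 (r = 0.71), miR-1306-3p (r = 0.67) and miR-30c-1-3p (r = 0.63). These too are descriptions over the 20 libraries.

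The other miRNAs of the same biology were read from 3 lists. On the list that groups relatives of miR-15 with miR-103 and miR-107, 0 of the 5 other tested members passed by edgeR. There 2 were at an unadjusted p under 0.05, and the median log2 fold change was -0.24. By DESeq2 and by limma voom 1 passed as lower. Whether all members of this list share a seed was not tested. miR-16 stood at 1725 ± 352 CPM in Control and 1442 ± 380.1 CPM in ICH and was lower in all 10 numbers, with a log2 fold change of -0.27 (edgeR's adjusted p = 0.0555). miR-103 and miR-107 themselves were at 0.06 and -0.03.

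Of the 14 other hypoxia-responsive miRNAs tested, 1 rose and 2 fell, a share close to the 21.8% called among all tested, with a median of -0.05 beside -0.04 for all tested. miR-21, an abundant miRNA of inflammation, rose by 0.52 ± 0.095 (SE) on the log2 scale (edgeR's adjusted p = 0.00229). miR-181a and miR-181b, known from lymphocyte signalling, fell by 0.39 and 0.22 on the log2 scale (adjusted p = 0.00245 and 0.049 by edgeR). Of the 14 other miRNAs of lipid and insulin metabolism, 2 rose and 2 fell, beside 11.7% higher and 10.1% lower among all tested, with a median of -0.11. In the human-reference counts 6 of 23 others on this list rose and 2 fell, beside 13.1% higher and 6.12% lower among all tested. There 11 of 23 were at an unadjusted p under 0.05, beside 31.0% of all tested. The list includes miR-223, which is given below as a cell marker. In the pig-reference counts miR-148a-3p, known to lower LDL receptor expression, rose by 0.42 on the log2 scale. The other arm of its hairpin, miR-148a-5p, rose by 0.38. miR-29a and miR-29b, known to target collagens and insulin signalling, fell by 0.49 and 0.43 on the log2 scale. For all of these, edgeR's adjusted p was between 0.00231 and 0.0249.

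**Figure D5:**
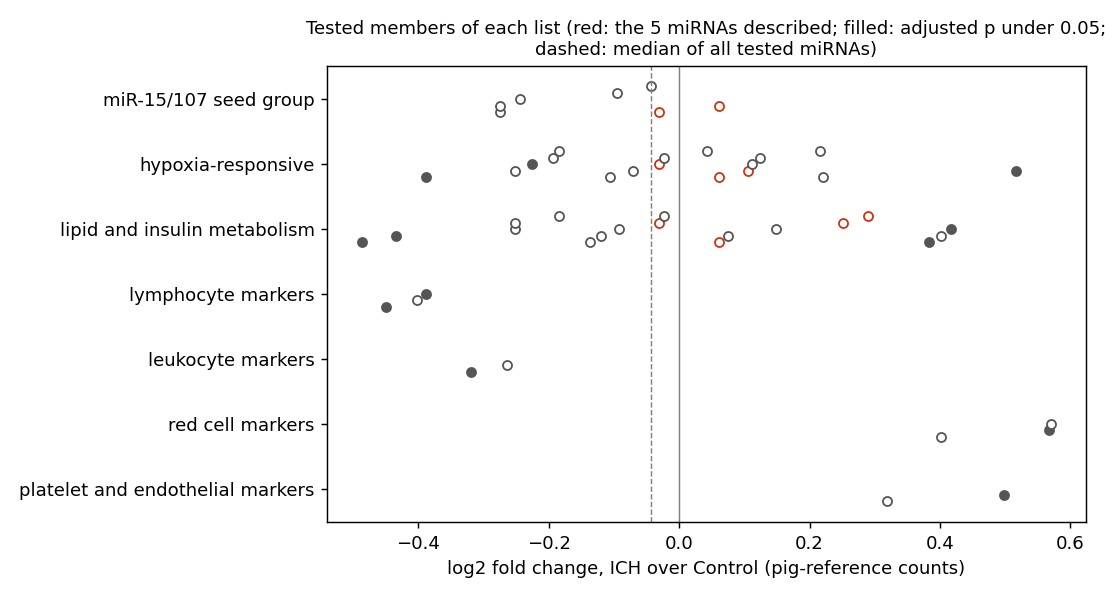
Log2 fold change (ICH over Control, pig-reference counts) of the tested members of each list, with the 5 miRNAs in red, filled points where the adjusted p was under 0.05 and a dashed line at the median of all tested miRNAs, -0.04. The hypoxia and metabolism lists have filled points on both sides of 0, and the red points are all open.

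Some markers of blood cell types differed between the same groups. Among all tested miRNAs 21.8% were called in the pig-reference counts and 19.2% in the human-reference counts. Without the block 0 of the tested pig-reference markers passed. The summed CPM of 3 lymphocyte markers was 21632 to 33334 in Control and 16279 to 31354 in ICH, and 2 of 3 fell, miR-150 by 0.45 on the log2 scale (edgeR's adjusted p = 0.00398). These markers include miR-181a, whose fall was already counted among the hypoxia-responsive miRNAs. The general leukocyte marker miR-142 summed to 15614 to 30364 CPM in Control and 10436 to 22513 CPM in ICH. In these counts 1 of its 2 arms fell, miR-142-5p by 0.32 on the log2 scale (edgeR's adjusted p = 0.0264). In the human-reference counts 0 of its 2 arms passed. The sum of 3 red cell markers was 110.3 to 911 CPM in Control and 397 to 1327 CPM in ICH, and 1 of 3 rose, miR-486 by 0.57. The platelet and endothelial marker miR-126 summed to 199 to 464 CPM in Control and 278 to 541 CPM in ICH, and 1 of its 2 arms rose. miR-223, a marker of monocytes and granulocytes read from the human-reference counts, summed to 755 to 2169 CPM in Control and 1813 to 3094 CPM in ICH. There 2 of 2 arms rose, and these 2 also passed without the block, beside 3.67% of all tested. The part of these shifts in the values of miR-378 and miR-185 was not tested. As a check of the labelled mononuclear cells, lymphocyte markers and, in the human-reference counts, miR-223 were present in every library.

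Markers of other organs were low or broadly expressed. Of the brain markers, miR-128 made up most of a sum of 6102 to 12134 CPM in Control and 6956 to 15055 CPM in ICH. In the pig-reference counts 1 of 3 rose, beside 11.7% higher among all tested, and in the human-reference counts 0 of 3 passed. The liver marker miR-122 was at 0.904 to 9.09 CPM in Control and 3.72 to 27.5 CPM in ICH, too low to test. The muscle markers summed to 2.42 to 9.09 CPM in Control and 5.09 to 60.9 CPM in ICH, and miR-133a-3p was at 0 in every Control library. Their part in the values of the 5 miRNAs was not tested.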

How the data were processed

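Small RNA libraries of 500 ng RNA from mononuclear cells of the 20 samples were prepared using a NEBNext kit for small RNA (per the labels' protocols). The authors deposited whole-number read counts per miRNA against pig and human references, a filtered version of each, and RPM values, which on checking equalled the filtered counts scaled to library totals within 0.005. Sscrofa11.1, GRCh38 and hg38 are the builds, and Bowtie, FastQC and bcl2fastq the tools, that the submitters' processing notes name. The labels used here state no versions, counting rule or filter rule. In the pig-reference table the filter kept 99.6% to 99.8% of all reads, but 83.6% to 97.3% of those of miR-210 and 92% to 97.5% of those of miR-107.

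Unfiltered counts were tested by edgeR 4.0.16 under R 4.3.3 (TMM scaling after filterByExpr, replicate number as a block, robust quasi-likelihood fit) and Benjamini-Hochberg adjustment over all miRNAs tested. Standard errors and 95% intervals came from the F statistic. CPM use TMM-scaled library sizes, with a prior count of 2 for log2 CPM. Ratios used log2 of counts plus 0.5, with exact sign-flip tests within numbers. Alternatives used DESeq2 1.42.0, limma 3.58.1 and other scalings, filters and blocks. Figures were drawn with matplotlib 3.10.9 in Python 3.11.15.

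The design text describes a sample before ICH and a second one after it. Same-numbered samples correlated in their deviations from the group means at 0.129 to 0.769 in the pig-reference table, all 10 over 0.1, where differently numbered samples had a median of -0.065, and at 0.147 to 0.672 in the human-reference table. The numbers were therefore taken to pair the samples. No sentence in the labels says that each number is 1 animal, and p-values measure the spread over these pairs. No 2 libraries of a group agreed within counting noise.

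The miRNAs, lists and tests were chosen with earlier results of these data known. The rule for naming took every member, the 3 nearest miRNAs of each by Pearson's r, up to 2 called list members in each direction and the markers. miR-16, which edgeR did not call, and miR-378b-3p were named outside that rule. The fits were tested on simulated data. A simulated 1.25-fold change was called for 40% of 20 miRNAs in the pig-reference setting and 21.1% of 19 in the human-reference setting. For a 1.5-fold change the shares were 90% and 75%, and for unchanged miRNAs 0% and 0.99%. Changes near 1.25-fold were thus often missed. The simulated spread between numbers was set beforehand, while means, library totals and a common count dispersion were taken from these data. These shares therefore need not hold for the miRNAs described. Sequences of the miRNAs were not used here.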

Additional observations from a re-analysis of the deposited data

Results flagged for a closer look

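Of 40 groups of 10 libraries examined for a library far from the rest, 2 were noted, and chance gives about 1 in 20. The log2 CPM of hsa-miR-378d in ICH replicate 1 was 3.45, against 4.18 to 4.91 in the other ICH libraries. The log2 CPM of hsa-miR-378g in Control replicate 5 was 2.52, against 3.17 to 3.79 in the other Control libraries. Both are minor relatives of miR-378a with few reads, and neither passed the test.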

How the results depend on the processing

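The replicate block decided how many miRNAs passed. Without it the counts were 0 instead of 39 in the pig-reference table and 9 instead of 47 in the human-reference table. Leaving out 1 number at a time gave 27 to 59 in the pig-reference table, with 59 when number 4 was left out, and 32 to 61 in the human-reference table. The ratio tests without pairing gave the same differences and adjusted p of 0.57 to 0.608. With human library sizes the pig-reference split was 30 higher and 14 lower, and with pig library sizes the human split was 22 and 22. Estimates near 0 turned sign without being called. Those of miR-107 in the pig-reference table were 0.086 after upper-quartile scaling, 0.0135 with no filter, 0.001 in the filtered table, -0.0771 to 0.0697 over numbers left out, and 0.0357 with human library sizes. Those of hsa-miR-107 were -0.0724 on library totals, -0.0784 after upper-quartile scaling, -0.0207 with no filter, -0.0792 on RPM, -0.0427 to 0.0566 over numbers left out and -0.03 with pig library sizes. Those of hsa-miR-378a-5p were -0.025 on library totals, -0.0351 after upper-quartile scaling, -0.0642 on RPM and -0.0241 to 0.1058 over numbers left out. Those of hsa-miR-378c were -0.0084 after upper-quartile scaling and -0.0088 on RPM. The miR-185 arm ratio ranged from -0.25 to 0.008 over numbers left out. In the pig-reference table miR-185 passed in 3 of 21 alternatives and miR-378 in 5. The cause of these differences was not tested. For 2 alternatives there was no value of hsa-miR-378g.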
